A study of Mus musculus with 6 samples.

Results

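The sterol ring enzymes turn squalene, a linear chain, into the ringed sterols that become cholesterol. The 9 genes described here, in pathway order, are Sqle, Lss, Cyp51, Tm7sf2, Msmo1, Nsdhl, Hsd17b7, Ebp and Sc5d. They were taken by name from the 54532 genes of the deposited table, and each name matched 1 row. Whole-liver RNA came from 3 control mice with floxed Notch1 alleles (Notch1fl/fl) and from 3 mice with hepatocyte Notch1 KO, all without treatment, and was sequenced liver by liver. The sources used here give neither the promoter that drove the deletion nor age, sex, diet or fasting state. Levels are FPKM, that is, fragments per kilobase of gene, scaled for the size of each library.

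Squalene epoxidase (Sqle) adds oxygen to squalene, and lanosterol synthase (Lss) folds the product into the sterol ring. Cyp51 removes the first methyl group, and the sterol reductase Tm7sf2 or its partner Lbr reduces the bond that this leaves. Msmo1, Nsdhl and Hsd17b7 then work in turn to remove the remaining extra methyl groups. Ebp shifts an unsaturated bond within the ring and Sc5d adds another, and Dhcr7 acts after it. The transcription factor SREBP2, made from Srebf2, drives most genes of this pathway when sterols in the cell are low, usually together with NF-Y, which binds CCAAT boxes, and Sp1, which binds GC boxes.

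The promoters are shown because they are the regulatory sequence that these genes are known to share. RefSeq windows of GRCm38.p6, from 250 bases before to 50 after the start, were found for 8 of the 9 genes; Sqle had no entry. The letters CCAAT and GGGCGG, searched like the sterol element on both strands, each occurred in 8 of 8 windows. Among all 32851 promoter windows of the same length 37.4% held CCAAT, 35.7% held GGGCGG and 12.8% held both. The sterol element TCACNCCAC occurred in 0 of the 8 and in 1.24% of all windows. Only these exact letters within the windows were searched, so elements with other letters or farther away would be missed. None of these motifs overlapped another in the windows shown. Below are 150 bases for 2 genes with higher and 2 with lower mean deposited levels in the knockouts, with matches to these motifs in capitals. Each stretch ends just before the gene's start in the deposited table, which lies 17 bases before the RefSeq start for Lss, 49 for Cyp51, 36 for Hsd17b7 and 0 for Ebp.
Lss, chr10:76531438-76531587, plus strand: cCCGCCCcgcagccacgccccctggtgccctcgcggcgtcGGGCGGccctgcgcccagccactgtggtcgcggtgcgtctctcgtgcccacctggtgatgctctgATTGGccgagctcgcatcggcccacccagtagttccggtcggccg
Cyp51, chr5:4104747-4104896, minus strand: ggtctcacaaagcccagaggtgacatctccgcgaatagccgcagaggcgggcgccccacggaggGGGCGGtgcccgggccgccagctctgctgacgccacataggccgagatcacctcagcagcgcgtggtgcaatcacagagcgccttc
Hsd17b7, chr1:169969242-169969391, minus strand: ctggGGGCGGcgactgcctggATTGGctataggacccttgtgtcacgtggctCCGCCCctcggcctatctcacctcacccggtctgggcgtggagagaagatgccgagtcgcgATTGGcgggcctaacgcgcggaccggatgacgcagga
Ebp, chrX:8193513-8193662, minus strand: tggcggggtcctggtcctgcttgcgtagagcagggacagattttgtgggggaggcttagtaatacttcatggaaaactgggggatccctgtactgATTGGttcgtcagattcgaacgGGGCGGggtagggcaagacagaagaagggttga

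All 8 windows held both boxes, so their presence cannot set genes with higher means apart from genes with lower means. The direction itself was unsure for Hsd17b7 and Ebp, whose sign changed in 4 and 2 of 17 alternatives. A match is a description of the letters only. Counted from the RefSeq start, the CCAAT match in Lss lay 62 bases upstream and that nearest the start in Ebp 55, both on the reverse strand. The CCAAT match of Cyp51, 29 bases upstream, falls past the end of the stretch shown. Msmo1 and Hsd17b7 had 3 CCAAT matches each and Nsdhl had 4.

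**Figure D1:**
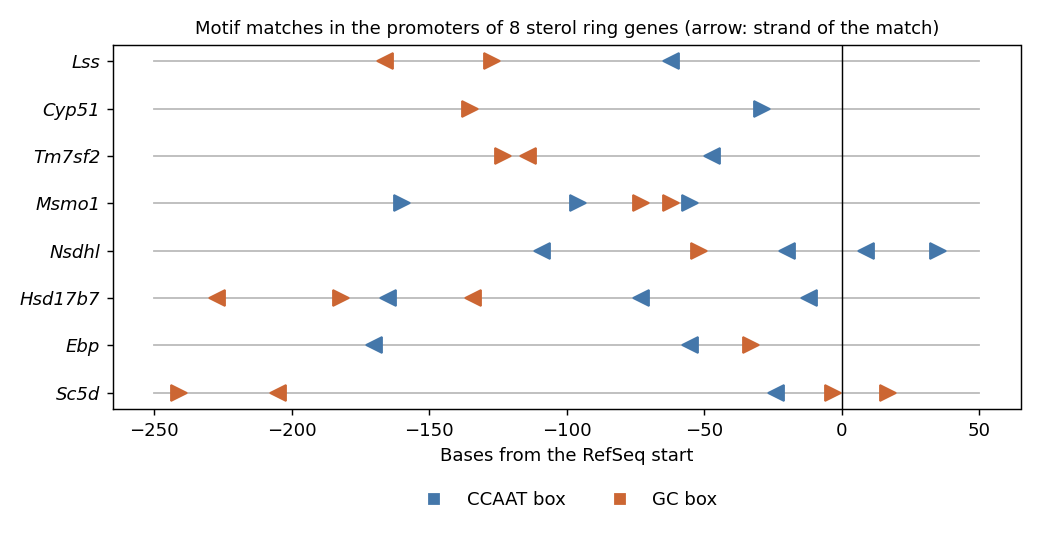
Position of each motif match (first base, in bases from the RefSeq start) in 8 promoter windows, 1 line per gene; arrows give the strand and colours the motif. Every line carries at least 1 CCAAT box and 1 GC box.

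All 9 genes passed the filter for testing, 0.5 FPKM or more on average over the 6 livers. Genes were tested with limma on log2(FPKM + 1), comparing knockout with control livers (two-sided, p-values adjusted by Benjamini-Hochberg over the 12022 genes tested). At an adjusted p under 0.05, 0 of the 9 passed, where 0.0250% of all genes tested did (3 genes, and 0.00% in the fit blocked on replicate number). At an unadjusted p under 0.05, 1 gene was higher (Lss) and 0 were lower, where 6.83% of all genes were higher and 7.06% lower. In the blocked fit these were 1 (Sqle) and 0, against 7.94% and 8.18% of all genes. Scaling by total reads gave 3 and 0, against 11.4% of all genes higher and 3.06% lower. Voom on recovered reads gave 2 and 0, against 7.15% and 7.39% of all genes. At the adjusted threshold voom, which called 15 genes in all, also gave 0 of the 9. The median log2 fold change of the 9 was 0.14, against -0.01 over all genes tested, and without knockout 1 it was -0.024. Log2 fold changes were positive for 5 genes and negative for 4, where 48.1% of all genes were positive, and with scaling by total reads positive for 8 and negative for 1, where 70.0% of all genes were positive. Quantile normalization gave 6 positive members (46.8% of all genes) and voom 5 (47.9%).

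With all 6 livers, the 2 enzymes at the head of the sequence had the largest positive fold changes of the 9. Msmo1 passed both without knockout 2 (log2 fold changes of 0.49 for Msmo1, 0.36 for Sqle and 0.28 for Lss), and without control 2 Sqle, at 0.17, lay below Msmo1 at 0.27. Sqle (ENSMUSG00000022351, chromosome 15, 59315077 to 59331192, GRCm38) measured 11.3, 7.56 and 10.3 FPKM in controls 1 to 3 against 13.2, 11.6 and 12.1 in knockouts 1 to 3. All 3 knockouts lay above all 3 controls, by a margin of 11.6 against 11.3 at the closest. It was the only one of the 9 whose groups did not overlap, where 9.20% of all genes tested had every knockout above every control. The means were 9.72 ± 1.95 and 12.3 ± 0.841 FPKM (SD, n = 3), a ratio of 1.26. The log2 fold change was 0.32 (95% interval -0.03 to 0.67), with a limma adjusted p of 0.392 that ranged from 0.255 to 0.608 over the alternatives.

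Lss (ENSMUSG00000033105, chromosome 10, 76531588 to 76557138) measured 3.66, 3.56 and 4.98 FPKM in control livers against 5.57, 6.36 and 4.67 in knockout livers. Control 3 exceeded knockout 3, so the groups overlapped. The means were 4.06 ± 0.791 and 5.53 ± 0.842 FPKM, a ratio of 1.36. For Lss the fitted log2 difference was 0.37 (95% interval 0.02 to 0.72), with a limma adjusted p of 0.336 that ranged from 0.252 to 0.602 over the alternatives. Blocked on replicate number, the fit gave an unadjusted p of 0.0774 for Lss and 0.0317 for Sqle.

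Cyp51 (ENSMUSG00000001467, chromosome 5, 4081145 to 4104746) measured 45.3, 40.1 and 43.5 FPKM in control livers against 52.2, 45.8 and 44.8 in knockout livers. Knockouts 1 and 2 lay above every control, while knockout 3 fell between controls 1 and 3. Cyp51 had a log2 fold change of 0.14 (limma adjusted p = 0.589, 95% interval -0.10 to 0.39). Tm7sf2 (ENSMUSG00000024799, chromosome 19, 6062821 to 6077197) measured 27.5, 29.9 and 30.9 FPKM in control livers against 24.4, 31.5 and 25.9 in knockout livers. Knockout 2 was the highest liver of the 6 and the other knockouts the lowest. Its log2 fold change was -0.11 (limma adjusted p = 0.731, 95% interval -0.40 to 0.17).

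The value of Tm7sf2 is uncertain. Its row spans most of Vps51 on the same strand (6067842 to 6080324), a neighbour whose own row measured only 0.0561 to 0.408 FPKM. The table gives Tm7sf2 an end at 6077197 and a length of 5593 bases, whereas GENCODE M21 ends the gene at 6068373 with 4403 exon bases. The other 8 genes had the same coordinates and exon lengths in both. Antisense genes share 3.53% of the exon bases of Lss (4930483K19Rik) and 3.76% of those of Cyp51 (Akap9). The sources used here do not say whether counting used strand.

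The 3 enzymes of methyl removal differed in their pattern over the livers. Msmo1 (ENSMUSG00000031604, chromosome 8, 64718139 to 64733792) measured 23.7, 23.9 and 19.4 FPKM in control livers against 38.6, 17.9 and 25.8 in knockout livers. Knockout 1 was the highest and knockout 2 the lowest of all 6 livers. Msmo1 had a log2 fold change of 0.22 (limma adjusted p = 0.760, 95% interval -0.38 to 0.83), and -0.049 without knockout 1.

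Nsdhl (ENSMUSG00000031349, chromosome X, 72918557 to 72958514) measured 28.5, 25.6 and 25.5 FPKM in control livers against 27.0, 35.1 and 29.0 in knockout livers. Here knockout 2 was the highest liver, and knockout 1 lay among the controls. The log2 fold change of Nsdhl was 0.18 (limma adjusted p = 0.560, 95% interval -0.11 to 0.47). Hsd17b7 (ENSMUSG00000026675, chromosome 1, 169949535 to 169969241) measured 11.9, 8.73 and 11.1 FPKM in control livers against 11.9, 7.41 and 11.3 in knockout livers. Livers numbered 2 were the lowest of each group, and knockouts 1 and 3 were close to controls 1 and 3. The log2 fold change of Hsd17b7 was -0.06 (limma adjusted p = 0.924, 95% interval -0.51 to 0.39). Its sign turned in 4 of 17 alternatives.

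Ebp (ENSMUSG00000031168, chromosome X, 8185329 to 8193512) measured 99.5, 98.8 and 97.7 FPKM in control livers against 87.8, 110 and 85.8 in knockout livers. The controls lay close together (SD 0.876 FPKM), while the knockouts fell on either side of them (SD 13.3 FPKM). Ebp had a log2 fold change of -0.07 (limma adjusted p = 0.845, 95% interval -0.36 to 0.22). Sc5d (ENSMUSG00000032018, chromosome 9, 42251595 to 42264256) measured 92.1, 101 and 103 FPKM in control livers against 86.9, 103 and 74.1 in knockout livers. Knockout 2 and control 3 were the highest livers and the other knockouts the lowest. The log2 fold change of Sc5d was -0.17 (limma adjusted p = 0.629, 95% interval -0.51 to 0.16). The interval of each gene but Lss included 0, which does not show that levels were equal.

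**Figure D2:**
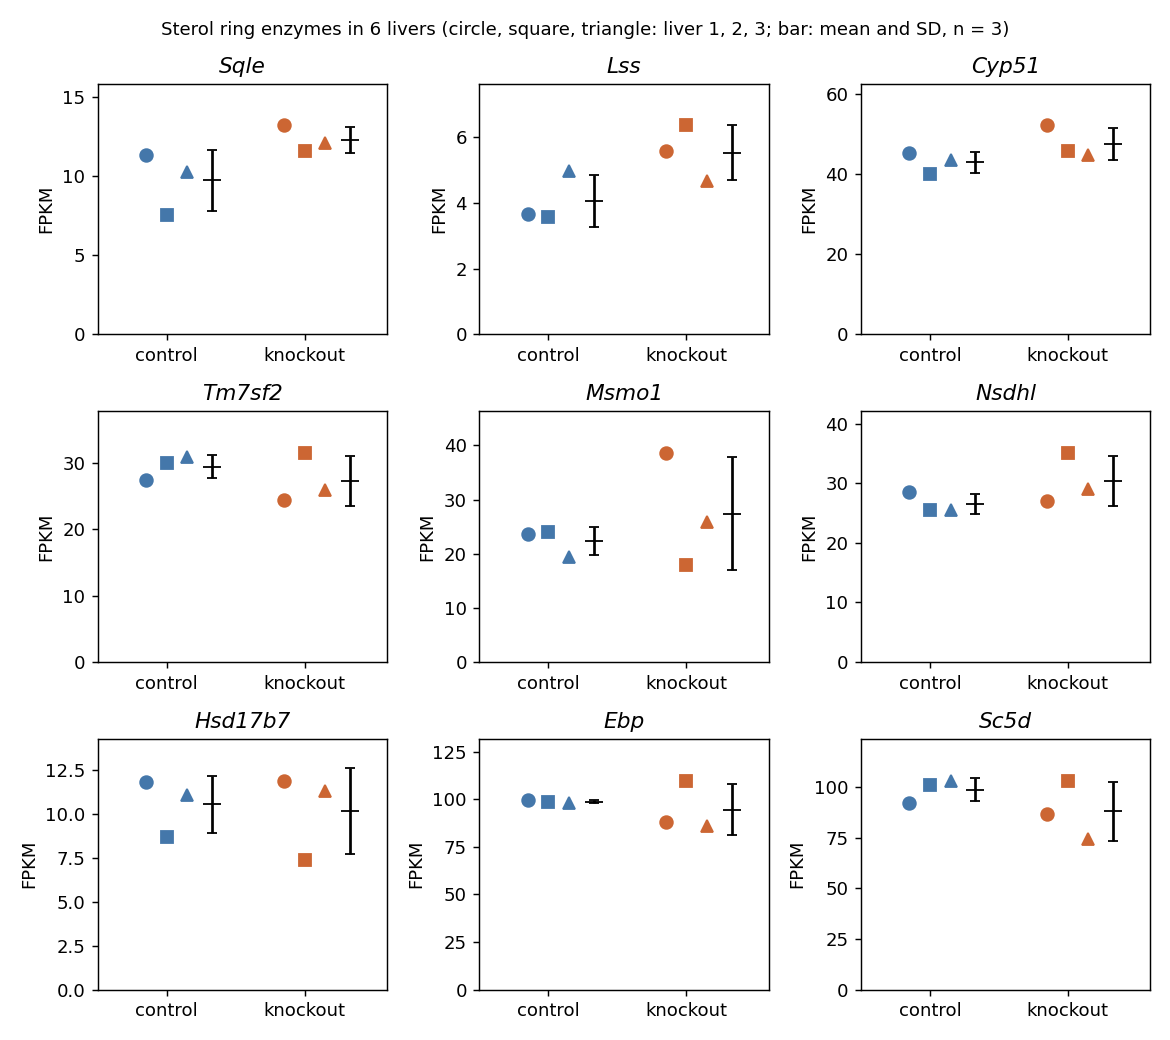
FPKM of each gene in each liver (vertical axes from 0), controls in blue and knockouts in orange, with mean and SD (n = 3) beside the points. Sqle is the gene with every knockout above every control, and knockout 2 (square) is the highest knockout for Lss, Tm7sf2, Nsdhl, Ebp and Sc5d but the lowest for Msmo1, Hsd17b7 and Sqle.

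**Figure D3:**
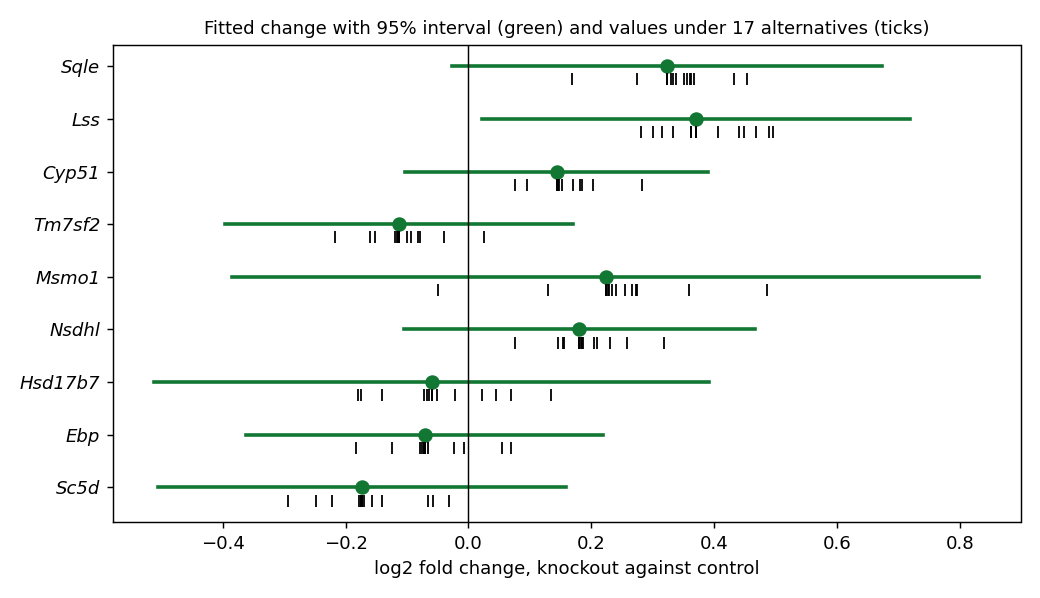
Fitted log2 fold change of each gene (horizontal axis) with its 95% interval in green, and the value under each of 17 alternatives as black ticks below it. The interval of Lss lies above 0, and ticks on both sides of 0 occur for Tm7sf2, Msmo1, Hsd17b7 and Ebp.

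The sign of the smaller differences changed with the scaling between libraries. Scaling by total reads moved the median of all genes tested by 0.10 on the log2 scale, and Tm7sf2, Hsd17b7 and Ebp then had log2 fold changes of 0.025, 0.069 and 0.070. Relative to the median of all genes under that scaling they were -0.071, -0.028 and -0.027. On the same relative scale the median of the 9 genes was 0.19, against 0.15 with the deposited scaling.

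Between genes, per length and in FPKM, the controls ranged from 98.7 ± 0.876 for Ebp to 4.06 ± 0.791 for Lss (SD, n = 3), 24.3 times apart. Sc5d (98.6 ± 5.81) overlapped Ebp, and Cyp51 (43.0 ± 2.64) came next, below both. Tm7sf2 (29.4 ± 1.75) overlapped Nsdhl (26.5 ± 1.70), which lay above Msmo1 (22.3 ± 2.54) in every control. Hsd17b7 (10.6 ± 1.63) overlapped Sqle (9.72 ± 1.95), and Lss was the lowest in every control. In the knockouts Ebp, Sc5d and Cyp51 were again the highest and Lss the lowest. Except for Tm7sf2 (5593 bases against 4403 in GENCODE M21), the lengths in the table add up all exons of a gene. These table lengths exceed the principal transcript 3.80 times for Tm7sf2, 3.01 times for Msmo1, 2.31 times for Lss and 2.01 times for Sqle. Per kilobase of principal transcript in GENCODE M21, a measure added after the data were seen, Tm7sf2 would rank second (112), after Ebp (131), and Lss would still be lowest (9.39). The rank of Tm7sf2 is uncertain, because its row spans most of Vps51. The 9 genes rested on 592 to 10060 reads per liver, so counting error was at most 4.11% of a value.

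Among the 6 livers, the genes outside the lists whose pattern was most like the mean standardised level of the 9 were Gm6274, Cwf19l2, Ppa1, Gm13021 and Magi3. Their Pearson r over 6 libraries was 0.99, 0.98, 0.98, 0.97 and 0.97. Ppa1, a pyrophosphatase, measured 69.9, 60.3 and 67.6 FPKM in control livers against 77.2, 80.9 and 66.2 in knockout livers, with overlapping groups. With 6 points and 12022 genes these values only describe the libraries.

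The steps before and after the ring gave other counts. Of 8 enzymes of the mevalonate pathway up to squalene, 8 had higher means under each scaling, 5 were higher at an unadjusted p under 0.05, and the groups did not overlap in 5; the median log2 fold change was 0.44. Over all genes tested 48.1% were positive (46.8% with quantile normalization and 70.0% with scaling by total reads). With the deposited scaling 6.83% were higher at that p and 9.20% had non-overlapping, higher groups. For the 9 ring enzymes the same counts were 5, 1 and 1, with a median of 0.14. In same-numbered livers 1, 2 and 3 the median knockout minus control difference on the log2 scale was 0.56, 0.36 and 0.34 for the earlier enzymes. For the ring enzymes it was 0.01, 0.15 and 0.02. Higher in the knockout were 8, 8 and 5 of the 8 earlier enzymes and 5, 7 and 5 of the 9 ring enzymes. The labels do not pair the livers by number. The difference between these lists was not tested, and 0 genes of either passed over all genes. Within the earlier list the smallest p belonged to Hmgcs1, Idi1, Fdft1, which makes squalene, and Mvd, with ratios of means of 1.46, 1.57, 1.23 and 1.54 (limma adjusted p = 0.107, 0.159, 0.222 and 0.231). Fdft1, the step just before Sqle, measured 22.9, 24.4 and 23.0 FPKM in control livers against 28.5, 29.5 and 28.5 in knockout livers. Fdps measured under 1 FPKM in all 6 livers; 86.4% of the 50-base stretches of its principal transcript also occur in transcripts of other genes, so its value is uncertain.

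After the ring, Dhcr7, the last ring reductase, measured 15.5, 13.5 and 14.3 in control livers against 19.4, 16.8 and 16.1 in knockout livers (ratio 1.21, limma adjusted p = 0.356), each knockout above every control. Lbr, which carries out the same reaction as Tm7sf2, measured 1.90 ± 0.238 and 1.85 ± 0.0743 FPKM (SD, n = 3), with overlapping groups.

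**Figure D4:**
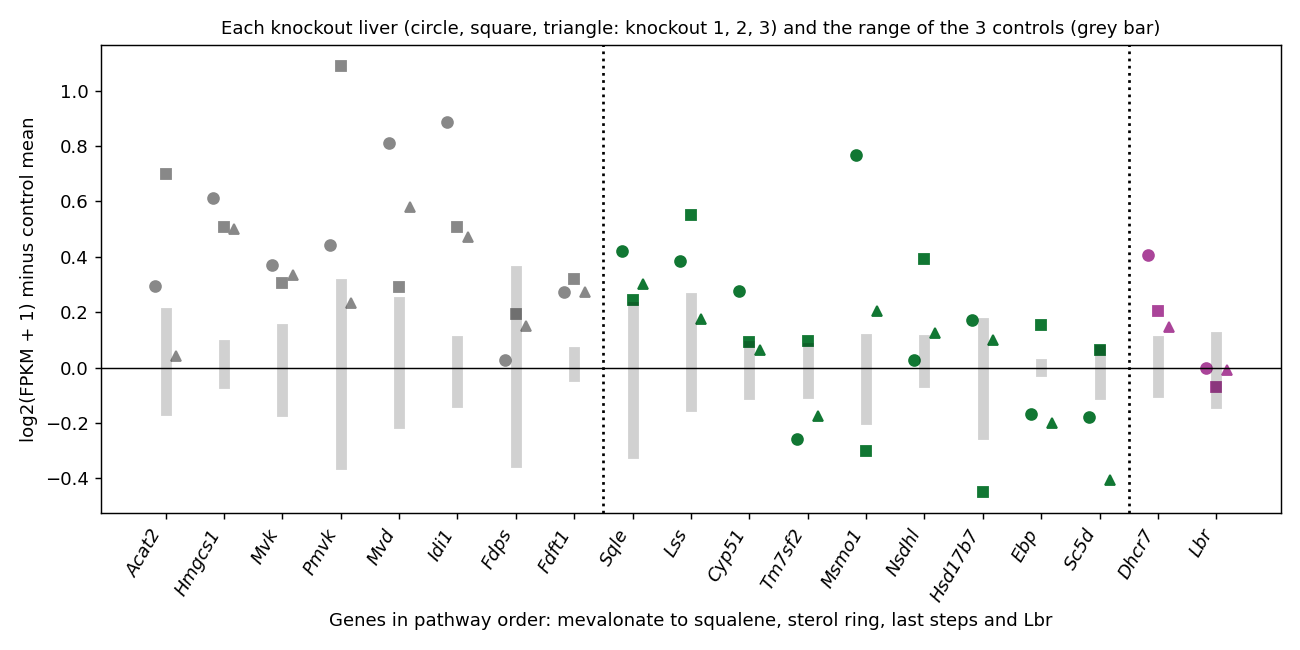
Difference of each knockout liver from the control mean on the log2(FPKM + 1) scale (vertical axis) for 19 genes in pathway order; grey bars span the 3 controls. Hmgcs1, Mvk, Mvd, Idi1, Fdft1 and Dhcr7 have all 3 knockouts above the control range, while among the 9 ring enzymes (green) Sqle does. Of all genes tested 9.20% do.

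Cyp51, Sqle, Msmo1 and Sc5d take electrons from Por or from cytochrome b5. Of 7 genes for redox partners and accessory proteins, 6 had lower means (3 with scaling by total reads) and 3 were lower at an unadjusted p under 0.05 (1 in the blocked fit, 1 with quantile normalization and 0 with scaling by total reads), with 0 past the threshold. The shares of all genes lower at that p were 7.06%, 8.18%, 7.15% and 3.06% in the same order. Positive log2 fold changes made up 48.1% of all genes tested, and 70.0% with scaling by total reads. Cyb5a, cytochrome b5, measured 491, 553 and 473 FPKM in control livers against 437, 361 and 364 in knockout livers (limma adjusted p = 0.291). Cyb5r3, its reductase, measured 142, 130 and 139 against 98.8, 114 and 121 (adjusted p = 0.324), and Pgrmc1, a heme protein that binds Cyp51, 616, 580 and 572 against 516, 451 and 470 (adjusted p = 0.343). In these 3 genes every knockout lay below every control in the deposited values, where 10.6% of all genes tested did; with either other scaling the groups of Cyb5r3 overlapped. Por (46.6 ± 6.87 and 44.0 ± 3.91) and Erg28, which tethers the methyl-removing enzymes (13.9 ± 0.889 and 13.2 ± 1.15), overlapped between groups.

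Among 6 genes of SREBP2 control, 3 had higher means (4 with either other scaling) and 1 was higher at an unadjusted p under 0.05 (2 with the block or with either other scaling). Of all genes 6.83% were higher at that p, 7.94% with the block, 6.74% with quantile normalization and 11.4% with scaling by total reads. Positive log2 fold changes made up 48.1% of all genes, 46.8% with quantile normalization and 70.0% with scaling by total reads. Srebf2 measured 5.58, 5.52 and 6.42 FPKM in control livers against 8.15, 8.40 and 7.73 in knockout livers (limma adjusted p = 0.162). Insig1, a target of SREBP2 that holds it back, measured 57.6, 58.2 and 72.1 against 67.0, 83.5 and 91.5 (adjusted p = 0.363). Of 5 genes for sterol-driven degradation, 5 had lower means (2 with scaling by total reads) and 1 was lower at an unadjusted p under 0.05 (0 with scaling by total reads), where 7.06% of all genes were (3.06% with that scaling). Marchf6, the ubiquitin ligase that degrades squalene epoxidase, measured 14.3, 13.0 and 14.3 FPKM in control livers against 12.3, 8.89 and 11.5 in knockout livers (adjusted p = 0.327).

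Of 11 genes that export, esterify or break down cholesterol, 10 had lower means (7 with scaling by total reads), 2 were lower at an unadjusted p under 0.05 (4 with the block, 1 with scaling by total reads) and 0 were higher. Of all genes 7.06% were lower at that p, 8.18% with the block and 3.06% with scaling by total reads. These were Abcg1, a sterol exporter (1.57, 1.77 and 1.15 FPKM in control livers against 0.707, 0.932 and 0.820 in knockout livers, adjusted p = 0.206), and Cyp27a1, a sterol hydroxylase (195 ± 18.8 and 143 ± 14.7, adjusted p = 0.224). Of 8 targets of the sterol receptor LXR, 6 had lower means. Abcg1 was the 1 that was lower at an unadjusted p under 0.05 (2 genes with the block), against the same shares of all genes. Abca1, Abcg1, Abcg5 and Abcg8 are also in the cholesterol list above, so the counts of these lists are not independent. Of the genes in the LXR list only, Mylip and Lpcat3 had lower means, and Srebf1 and Nr1h3 had higher means. Beside the counts of lower means in these lists, 48.1% of all genes tested had positive log2 fold changes (70.0% with scaling by total reads).

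Notch1 itself, the deleted gene, measured 0.618, 0.965 and 0.854 FPKM in control livers against 0.301, 0.540 and 0.292 in knockout livers. Each knockout lay below every control, where 10.6% of all genes tested did. The ratio of means was 0.46, with a limma adjusted p of 0.257. Libraries held 15612924 to 17511961 reads in genes. Albumin (Alb) measured 20452 to 37515 FPKM, so hepatocyte RNA was abundant in every liver. With the deposited scaling the summed level of 8 hepatocyte markers was 58946 to 67411 FPKM in the controls and 42344 to 54550 in the knockouts. Alb was the largest part of each sum. Of the 8, 6 had lower means (4 with quantile normalization, 5 with scaling by total reads). Their median log2 fold change was -0.19, against 0.02 with quantile normalization and -0.04 with scaling by total reads. All 5 mesothelial markers had higher means in the knockouts, with summed levels of 4.93 to 49.9 FPKM in controls, highest in control 3, and 84.2 to 143 in knockouts; Msln, Upk3b, Upk1b, Lrrn4 and Gpm6a were above 0 in each library. The 5 red blood cell markers had lower means (756 to 928 FPKM in controls, 374 to 762 in knockouts). The hepatocyte, mesothelial and red blood cell lists each had 0 genes past the adjusted threshold. Of all genes tested 48.1% had positive log2 fold changes (46.8% with quantile normalization, 70.0% with scaling by total reads). The part of these marker differences in the values of the ring enzymes was not tested. In bulk liver, fewer cells of a type and less RNA per cell cannot be told apart.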

How the data were processed

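Whole-liver messenger RNA of 6 mice (3 per group) was measured. Per the submitters' processing notes, the build was GRCm38 and the tools included featureCounts 1.5.0-p3 and HISAT2 2.0.5; the sources used here do not give their settings. The authors deposited FPKM per gene with gene length (another column of the table, in bases). In each library, FPKM times length came in whole steps (within 0.1 read for 100.0% of the nonzero values), so reads were recovered from it. The steps followed a median-of-ratios size factor, so the deposited values were already scaled between libraries. Columns named NC were taken as controls by elimination, with their number as the replicate; 0 columns were left over.

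Fits used limma 3.58.1 in R 4.3.3 (lmFit, eBayes with trend) on log2(FPKM + 1), a pseudocount that understates changes of low genes, for genes averaging 0.5 FPKM or more. The fit was also run on simulated reads with the same setting of spread for every gene, unlike these livers. That run therefore does not measure how reliable the fit is here. Some genes of the pathway lists are not reported here. The members, the lists of pathway and marker genes and the motifs were chosen with earlier results of these data known. Named genes are all 9 members, up to 4 genes per list with an unadjusted p under 0.05, by the smallest p, the 5 genes of most similar pattern, and others (such as Notch1, Fdps, Lbr, Por, Erg28, Insig1, Alb and Vps51) given as values for their role and chosen after their values were seen. Livers numbered 1 and 2 deviated together from their group means (r = 0.31 and 0.16, against -0.25 to 0.11 for other pairs). For number 3 the r of 0.10 lay within the range of other pairs. This check comes from the values alone. By that check the numbers were used as pairs in an alternative fit with a block. Nothing in the labels says that the livers were housed or processed apart, so p-values measure the spread between these samples. The marker list of bile duct (4 of 6 genes tested, 4 with higher means), Kupffer cells (6 tested, 3 higher), sinusoidal endothelium (6 tested, 2 higher), stellate cells (6 tested, 4 higher), neutrophils (2 tested, 2 higher) and lymphocytes (3 tested, 1 higher) had 0 genes past the threshold. Marchf6 was matched by its gene identifier because the table gives its name as a date.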

Additional observations from a re-analysis of the deposited data

How the results depend on the processing

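The results were refitted under 17 alternatives, 6 of them leaving out 1 liver. The 9 enzymes had 0 genes past the threshold in each, and their lowest adjusted p was 0.252. Of 153 values of single enzymes, 8 changed sign, in 4 enzymes, and the cause was not tested. With all 6 livers Ebp changed sign with quantile normalization (0.055) and scaling by total reads (0.070). Tm7sf2 (0.025) and Hsd17b7 (0.069) did with the latter, and Hsd17b7 with array weights (0.044). With 1 liver left out, Hsd17b7 changed sign without control 1 (0.021) and without knockout 2 (0.14), and Msmo1 without knockout 1 (-0.049). Leaving out 1 liver gave Sqle values from 0.17 (without control 2) to 0.43, Hsd17b7 values from -0.18 to 0.14 and Msmo1 values from -0.049 to 0.49. The count of genes past the threshold, 3, was 1 with a pseudocount of 0.1, 0 with no filter on low values, 15 with voom on recovered reads and 0 to 58 without 1 liver (58 without control 3, 29 without knockout 2, and 0 without control 2 or knockout 1). With the replicate number as a block it was 0, and the block changed no call of the 9 enzymes. The median log2 fold change of the 9 enzymes, 0.14, was 0.20 with quantile normalization, 0.28 with scaling by total reads and -0.024 to 0.18 without 1 liver, lowest without knockout 1. The count of enzymes with every knockout above every control, 1, was 2 with quantile normalization, 3 with scaling by total reads and 1 to 3 without 1 liver. With the deposited scaling and all 6 livers 9.20% of all genes tested did so. That share was not computed for the other settings, and groups separate more easily with fewer livers. The higher counts therefore cannot be read as a result about the enzymes. Planned tests with edgeR and DESeq2 were not run, and voom was the test run on the recovered reads. Depth limits the enzymes little (counting error at most 4.11%), and the number of livers limits the precision.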
